A study of Mus musculus with 10 samples.

Results

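The 9 genes described here serve the strand exchange step of meiotic recombination, and they are Dmc1, Rad51ap2, Psmc3ip, Mnd1, Brca2, Hsf2bp, Rpa1, Meiob and Spata22. The rule that names them uses their known roles and no measured value, although earlier results of these data were known when it was written. They are 9 of 28125 genes in the scRNA-seq matrix and 9 of 30670 genes in the scATAC-seq matrix. Both matrices came from nuclei of whole mouse testes on a C57BL/6J background, in which RNA and accessible chromatin were assayed together. The cell tables list 45250 scRNA-seq cells and 343866 scATAC-seq cells, of which 31569 (9.18%) carry 1 of the population names that the matrices use. Wild-type testes were taken at 11, 17 and 25 dpp (days post-partum). The 8-week-old testes came from Cre/+ mice, which carry Stra8-Cre, and from Nfya-CKO mice (Nfya fl/fl; Stra8-Cre), in which Cre driven by the Stra8 promoter removes part of Nfya in male germ cells. NFYA is the DNA-binding subunit of the CCAAT-binding factor NF-Y. Both 8-week-old groups thus carry Cre, and the wild-type groups do not. Each condition had 1 library per assay, so no difference below has a replicate check and no p-value was computed.

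In meiotic prophase I, programmed DNA breaks are cut back to single strands, which the RPA complex coats first. The recombinase DMC1 then replaces RPA and drives the search for the homologous chromosome and the exchange of strands. DMC1 is specific to meiosis, and BRCA2 takes part in recombinase loading with the help of meiosis-specific partners such as HSF2BP. PSMC3IP (HOP2) and MND1 form a complex that stimulates DMC1, and MEIOB and SPATA22 form a meiosis-specific complex that acts with RPA.

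Each cell population has 1 value per gene, pooled over the libraries. The 9 control germ cell populations are undifferentiated and differentiating spermatogonia (undiff. SpG, diff. SpG), preleptotene spermatocytes (pL), early leptotene to zygotene (eL/L/Z), leptotene, zygotene and early pachytene (L/Z/eP), middle and late pachytene (mP/lP), diplotene (D) and, after meiosis, round (RS) and elongating (ES) spermatids. The other 4 are spermatogonia of the Nfya-CKO library (SpG Nfya-CKO), Sertoli cells, other somatic cells and a population the authors left unknown, which holds 99 cells. RNA is given as the authors' pooled mean for a population, on the scale of UMIs per 10000. Library totals ranged from 30227701 to 64967271 UMIs for scRNA-seq and from 177596122 to 872964488 fragments for scATAC-seq, and populations from 99 to 8107 scRNA-seq cells. Populations differ in the libraries that fill them. Of undiff. SpG 50% and of pL 59.3% came from 11 dpp, of diff. SpG 84.5% from Cre/+, of L/Z/eP 93.5% from 25 dpp and of ES 99.6% from Cre/+, so age and stage cannot be told apart. Marker lists were highest in the populations of their names in some cases and not in others. Of the leptotene and zygotene markers, Sycp1, a synaptonemal complex gene, was at 15.3 in eL/L/Z and 25.3 in L/Z/eP against 5.74 in undiff. SpG. Prdm9 was also highest in L/Z/eP (1.22), but Sycp3 was highest in mP/lP (3.82, against 2.81 in L/Z/eP). Of the pachytene markers, Piwil1, a pachytene piRNA gene (11.4), and Hspa2 (7.43) were highest in mP/lP. Ovol2 was highest in D (0.504, against 0.291 in mP/lP). The summed level of Kit, Dmrtb1 and Stra8, markers of differentiating spermatogonia, was 5.19 in diff. SpG but 7.97 in pL. That of the 4 Sertoli markers (Sox9, Amh, Clu, Rhox5) was 45.9 in Sertoli cells but 95.3 in other somatic cells, of which Clu was 91.5, while Sox9 was higher in Sertoli cells (10.7 against 3.54). In diff. SpG the summed level of 3 elongating spermatid markers (Prm1, Prm2, Tnp1) was 6.67, against 0.312 in undiff. SpG and 0.00834 in pL.

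Libraries shared cell barcodes. Of 39716 scRNA-seq barcodes 5036 (12.7%) occurred in more than 1 library, against 982 of 342825 scATAC-seq barcodes (0.286%). Of 5152 scRNA-seq cells of the Nfya-CKO library 3813 (74.0%) had a barcode that was also a cell of the Cre/+ library. Among the SpG Nfya-CKO cells this held for 175 of 491, and their Cre/+ copies, 143 of them named diff. SpG, had fewer UMIs each (a median of 2275 against 21471). It also held for 3628 Nfya-CKO cells named other somatic, where the order was mostly the reverse. Of these, 73.0% had fewer UMIs than their Cre/+ copies (a median of 1209 against 9447). Shared barcodes made up 32.5% of undiff. SpG, 49.1% of diff. SpG, 19.0% of pL, 24.8% of eL/L/Z, 3.29% of L/Z/eP and 23.8% of mP/lP. They made up 14.1% of D, 8.51% of RS, 59.7% of ES, 6.55% of Sertoli cells, 70.1% of other somatic cells and 35.8% of SpG Nfya-CKO. The pooled matrices could not be recomputed without these cells, and the part of shared barcodes in the values below was not tested.

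The promoters of 8 of the 9 genes were found in RefSeq (GRCm38.p6, the assembly of mm10), and Meiob has no entry in that table. Because the study is about NFYA, the 250 bases upstream of the start are shown for the 3 genes with a CCAAT, the motif of NF-Y, and for Dmc1, which had none. The start used is that of the RefSeq promoter table, which need not be the outer end of the gene. It lies at that end in Psmc3ip, 50 bases inside the gene in Dmc1, 71 in Rpa1 and 3181 in Spata22, whose window is thus within the gene. Each sequence reads 5′ to 3′ on the strand of the gene, with CCAAT, or ATTGG where CCAAT lies on the other strand, in capitals. Psmc3ip is on the minus strand at chr11:101095436-101095685, Rpa1 on the minus strand at chr11:75348384-75348633, Spata22 on the plus strand at chr11:73329491-73329740 and Dmc1 on the minus strand at chr15:79605110-79605359.
Psmc3ip: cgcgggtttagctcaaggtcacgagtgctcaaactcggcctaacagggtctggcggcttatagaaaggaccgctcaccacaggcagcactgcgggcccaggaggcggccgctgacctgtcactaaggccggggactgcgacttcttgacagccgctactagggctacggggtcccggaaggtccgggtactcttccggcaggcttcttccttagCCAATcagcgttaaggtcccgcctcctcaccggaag
Rpa1: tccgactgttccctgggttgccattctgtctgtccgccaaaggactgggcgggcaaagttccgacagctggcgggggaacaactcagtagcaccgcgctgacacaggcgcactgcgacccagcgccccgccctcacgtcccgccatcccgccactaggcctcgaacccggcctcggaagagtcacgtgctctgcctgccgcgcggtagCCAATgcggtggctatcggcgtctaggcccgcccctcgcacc
Spata22: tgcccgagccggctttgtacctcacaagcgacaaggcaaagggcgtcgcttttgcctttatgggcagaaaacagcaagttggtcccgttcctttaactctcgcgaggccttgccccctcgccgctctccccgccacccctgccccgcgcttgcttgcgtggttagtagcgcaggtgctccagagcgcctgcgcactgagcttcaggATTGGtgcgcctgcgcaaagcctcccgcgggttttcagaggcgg
Dmc1: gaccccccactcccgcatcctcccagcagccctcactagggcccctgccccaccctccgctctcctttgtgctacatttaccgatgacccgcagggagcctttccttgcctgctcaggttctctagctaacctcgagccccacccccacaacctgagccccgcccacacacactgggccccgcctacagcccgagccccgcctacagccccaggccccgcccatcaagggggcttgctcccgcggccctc

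The match began 36 bases before the start in Psmc3ip, 42 in Rpa1 and 44 in Spata22. Rpa1 had a further CCAAT 43 bases past the start. Over 250 bases before to 50 after the start, with both strands searched, 3 of the 8 promoters (37.5%) held CCAAT, against 37.4% of 32851 mouse promoters. The letters CNCCTCAG, the motif of the meiotic regulator STRA8, were in none of the 8 windows and in 7.94% of all promoters. No match says only that these letters are not in these windows. The GC content of the 250 bases ranged from 50.4% in Hsf2bp to 68.8% in Dmc1, and they held 8 (Mnd1) to 26 (Rpa1) CpG dinucleotides.

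RNA of most of the genes was highest around leptotene to early pachytene. Among the 9 control germ cell populations, 6 of the 9 genes were highest in eL/L/Z (Dmc1) or L/Z/eP (Rad51ap2, Mnd1, Brca2, Meiob, Spata22), where 9.64% of 15250 genes tested were highest. The tested genes have a mean of at least 0.05 over the 13 populations, which all 9 pass. Psmc3ip and Hsf2bp were highest in mP/lP, and Rpa1 in pL. The highest level was 2.75 times (Hsf2bp) to 12.8 times (Meiob) the lowest among these populations, and 1.10 times (Hsf2bp) to 1.58 times (Psmc3ip) the next highest. With 1 value per population, neighbours in such an order cannot be shown to differ.

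**Figure D1:**
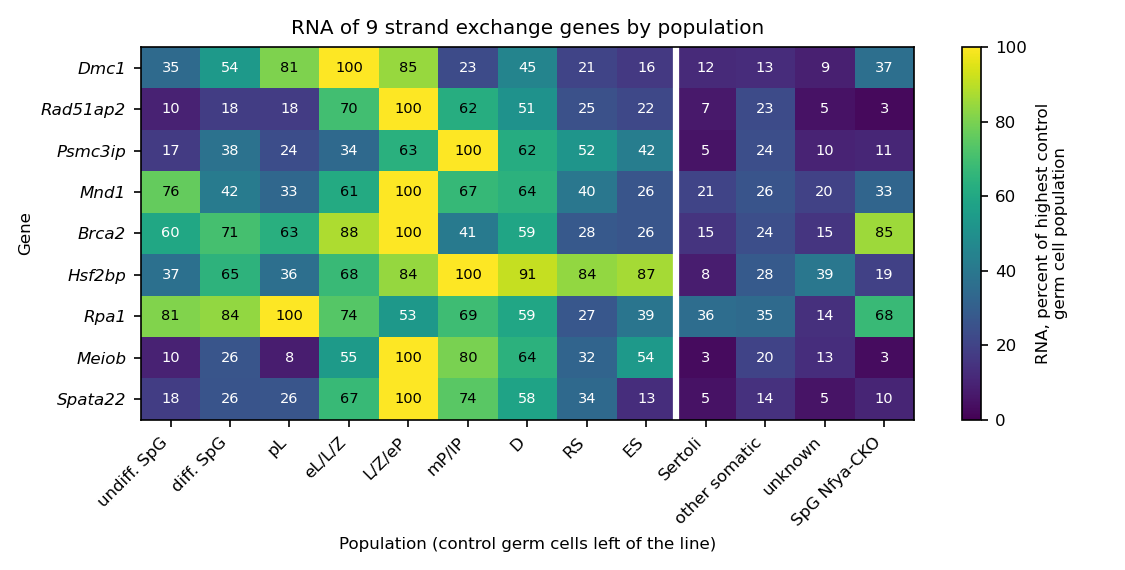
RNA of each gene (rows) in each population (columns) as percent of its highest control germ cell population, with control germ cells left of the white line and 1 pooled value per square. Dmc1 is at 81% in pL and 100% in eL/L/Z, while Meiob is at 8% and Rad51ap2 at 18% in pL, and both at 3% in SpG Nfya-CKO.

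Dmc1, the meiotic recombinase, was at 0.766 in undiff. SpG, 1.20 in diff. SpG, 1.79 in pL, 2.22 in eL/L/Z, 1.88 in L/Z/eP, 0.508 in mP/lP, 0.998 in D, 0.456 in RS and 0.366 in ES. Its RNA was thus already at 80.5% of its highest level in pL, before strand exchange takes place, and was at 22.9% of it in mP/lP. Rad51ap2, a gene of germline recombination, was at 0.0728, 0.135 and 0.132 in undiff. SpG, diff. SpG and pL, then at 0.522 in eL/L/Z, 0.751 in L/Z/eP, 0.469 in mP/lP, 0.383 in D, 0.187 in RS and 0.164 in ES. The low level up to pL and the higher level from eL/L/Z on set it apart from the course of Dmc1.

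The partner genes of the DMC1-stimulating complex differed in their course. Psmc3ip was at 0.207 in undiff. SpG, 0.452 in diff. SpG, 0.282 in pL, 0.410 in eL/L/Z, 0.761 in L/Z/eP, 1.20 in mP/lP, 0.742 in D, 0.625 in RS and 0.508 in ES. Mnd1 was at 0.153 in undiff. SpG, 0.0838 in diff. SpG, 0.0670 in pL, 0.123 in eL/L/Z, 0.201 in L/Z/eP, 0.134 in mP/lP, 0.129 in D, 0.0798 in RS and 0.0527 in ES. Mnd1 was therefore at 76.5% of its highest level in undiff. SpG, where Psmc3ip was at 17.2%, and at 66.9% in mP/lP, where Psmc3ip was highest. The Pearson r of the pair over the 13 populations was 0.62, on log2(value + 0.1).

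Brca2, the recombinase loader that also serves somatic DNA repair, was at 3.09 in undiff. SpG, 3.66 in diff. SpG, 3.26 in pL, 4.55 in eL/L/Z, 5.18 in L/Z/eP, 2.11 in mP/lP, 3.05 in D, 1.44 in RS and 1.37 in ES. Like Dmc1 it was high before meiotic prophase and lower in mP/lP than in the populations on either side. Hsf2bp, whose product binds BRCA2, was at 0.272 in undiff. SpG, 0.478 in diff. SpG, 0.269 in pL, 0.501 in eL/L/Z, 0.623 in L/Z/eP, 0.739 in mP/lP, 0.674 in D, 0.619 in RS and 0.640 in ES. It had the flattest course of the 9 genes from L/Z/eP on, with 83.8% to 100% of its highest level in mP/lP and the later populations.

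Rpa1, the large subunit of the RPA complex, which all dividing cells use, was at 1.06 in undiff. SpG, 1.09 in diff. SpG, 1.30 in pL, 0.962 in eL/L/Z, 0.695 in L/Z/eP, 0.897 in mP/lP, 0.774 in D, 0.356 in RS and 0.504 in ES. Its meiosis-specific relative Meiob was at 0.154 in undiff. SpG, 0.418 in diff. SpG, 0.125 in pL, 0.871 in eL/L/Z, 1.59 in L/Z/eP, 1.27 in mP/lP, 1.02 in D, 0.514 in RS and 0.854 in ES. Where Rpa1 was highest, in pL, Meiob was at 7.82% of its own highest level. Spata22, the partner of Meiob, was at 0.0429, 0.0615 and 0.0623 in undiff. SpG, diff. SpG and pL, then at 0.159 in eL/L/Z, 0.237 in L/Z/eP, 0.176 in mP/lP, 0.137 in D, 0.0809 in RS and 0.0314 in ES. Meiob and Spata22 were both highest in L/Z/eP, and in ES Meiob was at 53.6% and Spata22 at 13.3% of that level. The ES value of Spata22 corresponds to about 10 UMIs of cells of median depth, and that in L/Z/eP to about 313.

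**Figure D2:**
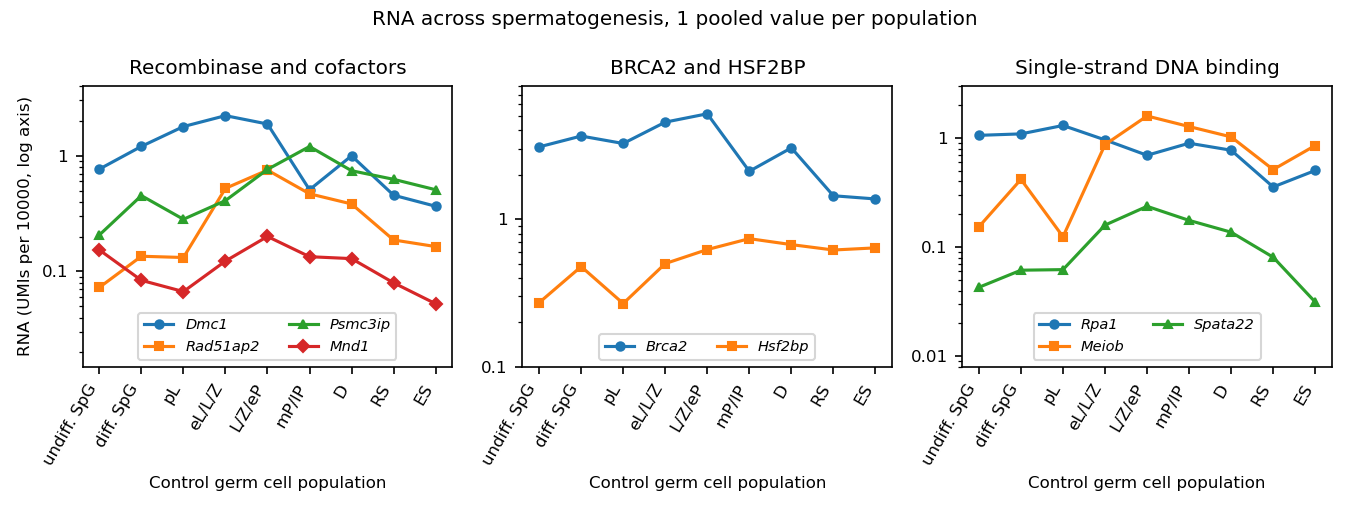
RNA of the 9 genes (UMIs per 10000, log axis) over the 9 control germ cell populations in the order of spermatogenesis, in panels by role, each point 1 pooled value without replicates. Dmc1 and Brca2 are lower in mP/lP than in L/Z/eP and D, and Meiob, Psmc3ip and Hsf2bp are higher in diff. SpG than in pL.

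Steps between neighbouring populations were called at 2-fold on the scale of log2(value + 0.1), which understates the change of low genes. From pL to eL/L/Z, 2 of the 9 genes rose at least 2-fold, against 4.41% of all genes tested. They were Meiob, with a log2 ratio of 2.11 (0.125 to 0.871), and Rad51ap2, with 1.42 (0.132 to 0.522). The call of Rad51ap2 ended at a pseudocount of 0.5 (0.69). In all, 8 of the 9 were higher in eL/L/Z than in pL, against 57.5% of all genes, and Rpa1 was lower with a log2 ratio of -0.40. The median log2 ratio of the 9 genes was 0.47, against 0.07 over all genes tested. Between eL/L/Z and L/Z/eP none passed 2-fold in either direction, against 9.42% of all genes, and 7 of 9 were higher, against 42.8% of all genes, with Meiob (0.80) and Psmc3ip (0.76) leading.

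From L/Z/eP to mP/lP, 2 of the 9 fell at least 2-fold, against 3.54% of all genes. Dmc1 had a log2 ratio of -1.70 (1.88 to 0.508) and Brca2 of -1.25 (5.18 to 2.11). Only 0.184% of genes tested had a lower log2 ratio than Dmc1 in this step, and 1.45% a lower one than Brca2. Psmc3ip was the gene of the 9 with the highest log2 ratio there, at 0.59. From mP/lP to D, where none passed 2-fold against 5.10% of all genes, the order turned, with Dmc1 at 0.85 and Brca2 at 0.51 and Psmc3ip lowest at -0.63. From D to RS all 9 were lower, against 63.0% of all genes (Hsf2bp turned to 0.07 when centred on the median of all genes), with Brca2 past 2-fold (-1.03, against 3.34% of genes) and Dmc1 close to it (-0.98). This call of Brca2 ended when ratios were centred on the median of all genes, and at a pseudocount of 0.5 (-0.87). By plain ratio the lowest were Dmc1 (0.457), Rpa1 (0.461), Brca2 (0.474) and Rad51ap2 (0.489), so the order depended on the pseudocount. From RS to ES none passed, against 20.1% of all genes.

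Before meiotic prophase Meiob was the 1 gene past 2-fold. It was higher in diff. SpG than in undiff. SpG (log2 ratio 1.03, against 9.57% of genes that rose as far) and lower in pL than in diff. SpG (-1.21, against 10.9% of genes that fell as far). Psmc3ip and Hsf2bp followed the same course within 2-fold at this pseudocount, with 0.85 and 0.64 up and -0.53 and -0.65 down. The plain ratio of Psmc3ip from undiff. SpG to diff. SpG was 2.19, and its log2 ratio at a pseudocount of 0.02 was 1.06. The rise of Meiob just passed the threshold and was below 2-fold when centred on the median of all genes. At a pseudocount of 0.5 both its rise (0.49) and its fall (-0.56) were below 2-fold. The diff. SpG population is also the one in which spermatid markers stood out, and its summed level of 3 pachytene markers (Piwil1, Hspa2, Ovol2) was 3.97, against 1.46 in undiff. SpG and 0.818 in pL. The part of these cells or of their shared barcodes in the values of Meiob, Psmc3ip and Hsf2bp was not tested.

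Of Sertoli cells 87.8% came from the 11 dpp library, while of other somatic cells 78.8% came from the Nfya-CKO library. The part of age and genotype in the values of these populations was not tested. In the Sertoli and other somatic populations the genes were low but not at 0. In Sertoli cells, which do not enter meiosis, they were at 2.82% (Meiob) to 35.9% (Rpa1) of their highest germ cell level, with Dmc1 at 0.266, Brca2 at 0.775, Meiob at 0.0449, Rad51ap2 at 0.0511 and Spata22 at 0.0115. In other somatic cells they were at 12.7% (Dmc1) to 34.6% (Rpa1). There Meiob was at 0.320 and Rad51ap2 at 0.171, above their own levels in pL (0.125 and 0.132). Psmc3ip there (0.288) was also above its levels in undiff. SpG (0.207) and pL (0.282), whereas Hsf2bp (0.208) was below its own (0.272 and 0.269). Germ cell markers were also found in other somatic cells, with a summed level of the 3 pachytene markers of 3.69 (0.511 in Sertoli cells, 0.818 in pL) and of the 3 elongating spermatid markers of 2.74 (0.00562 in Sertoli cells), and 70.1% of them had a shared barcode. The part of either in these values was not tested.

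RNA and accessibility of the 9 genes were next compared between spermatogonia of the Nfya-CKO library and control populations. Nfya RNA itself did not come out lower in cells labelled Nfya-CKO. Its level was 1.11 in SpG Nfya-CKO against 0.456 in undiff. SpG, 0.667 in diff. SpG and 0.414 in pL, and reads from the part of the gene that is kept also count there. The markers of undifferentiated spermatogonia differed among themselves. Zbtb16 was at 4.15 in SpG Nfya-CKO against 8.74 in undiff. SpG, Gfra1 at 1.20 against 1.08 and Uchl1 at 11.0 against 5.88. The germ cell markers Ddx4 and Dazl were lower, at 2.28 against 3.20 and at 6.80 against 13.2, with a summed level of 9.08 against 16.4. Of 3 Leydig cell markers (Insl3, Cyp17a1, Star) the summed level was 48.2 against 0.158, with Insl3 at 39.8 and none of the 3 at 0. The summed level of 4 Sertoli markers was 23.7 against 3.10, of which Clu was 22.8. The part of these marker differences in the values below was not tested. All SpG Nfya-CKO cells come from an 8-week-old testis, while 7.89% of undiff. SpG come from Cre/+ and nearly all others from younger wild-type testes, so age and genotype cannot be told apart.

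Against undiff. SpG, none of the 9 genes was 2-fold lower in SpG Nfya-CKO, where 3.08% of all genes were, and none was 2-fold higher, where 4.09% were. Lower by any amount were 7 of the 9, against 49.1% of all genes, beside germ cell markers that were also lower. With the pseudocount of 0.1, the lowest log2 ratio was that of Meiob (0.154 to 0.0538, log2 ratio -0.72), followed by Mnd1 (0.153 to 0.0652, -0.62) and Hsf2bp (0.272 to 0.144, -0.61). Meiob in SpG Nfya-CKO corresponds to about 48 UMIs and lay close to its Sertoli level of 0.0449. Rad51ap2 was at 0.0192 against 0.0728 (-0.54), and Psmc3ip at 0.127 against 0.207 (-0.44). The 0.0192 of Rad51ap2 corresponds to about 17 UMIs and was below its level in Sertoli cells, 0.0511. Rpa1 was at 0.881 against 1.06 (-0.24) and Spata22 at 0.0247 against 0.0429 (-0.20). The recombinase gene itself was not lower, with Dmc1 at 0.811 against 0.766 (0.07), and Brca2 was at 4.43 against 3.09 (0.50). The median log2 ratio of the 9 genes was -0.44, against 0.01 over all genes tested. This order depended on the pseudocount, since the plain ratio was lowest in Rad51ap2 (0.264), then Meiob (0.350) and Mnd1 (0.425). With a pseudocount of 0.02 these 3 were past 2-fold lower (log2 ratios -1.24, -1.24 and -1.02). The share of all genes that far lower at 0.02 is not given here, so this count says nothing about the 9 genes as a group.

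Against the other control populations, which share the SpG Nfya-CKO value, more genes passed. Against diff. SpG, 3 of the 9 were at least 2-fold lower, where 10.5% of all genes were, namely Meiob (-1.75), Psmc3ip (-1.28) and Hsf2bp (-1.24), the 3 genes with the lowest log2 ratios from diff. SpG to pL. The summed level of the 3 pachytene markers was 0.542 in SpG Nfya-CKO against 3.97 in diff. SpG. That of the 3 elongating spermatid markers was 0.0970 against 6.67. The part of these marker differences in the 3 calls was not tested. Against pL, Dmc1 was the 1 gene at least 2-fold lower (1.79 to 0.811, log2 ratio -1.05), where 4.73% of all genes were. SpG Nfya-CKO lay below all 3 control populations in 7 of the 9 genes, against 24.5% of all genes, and above all 3 in Brca2, against 30.2% of all genes. Dmc1 lay between undiff. SpG and diff. SpG.

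**Figure D3:**
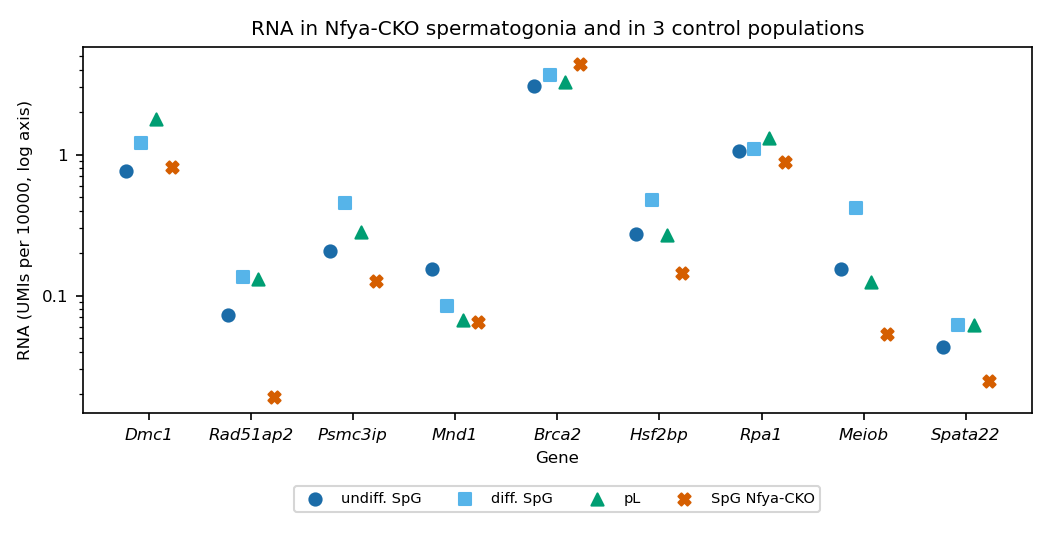
RNA of each gene (UMIs per 10000, log axis) in SpG Nfya-CKO (crosses) and in undiff. SpG, diff. SpG and pL, each point 1 pooled value without replicates. The cross is the lowest of the 4 points in 7 genes, the highest in Brca2, and between undiff. SpG and diff. SpG in Dmc1.

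Accessibility has likewise 1 value per gene and population. The study's methods define promoter accessibility as mean coverage around the start site, but no source used here ties that definition to this matrix. Values were scaled to a sum of 1000000 per population. Mitochondrial genes held from 31.2% (pL) to 64.5% (other somatic) of the signal, so the scaling without them is given beside it. The SpG Nfya-CKO value rests on 470 scATAC-seq cells and that of undiff. SpG on 1230. TSS enrichment, the coverage at gene starts over that of their flanks, averaged 7.99 and 12.7 in these cells.

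In SpG Nfya-CKO, Psmc3ip was at 20.9 against 29.9 in undiff. SpG (ratio 0.701), Dmc1 at 21.9 against 30.3 (0.725) and Meiob at 21.4 against 28.9 (0.741). These 3 lay lowest, and 13.1% to 17.5% of all genes had a lower ratio. Rad51ap2 was at 19.9 against 24.6 (0.809), Rpa1 at 35.3 against 42.0 (0.840), Mnd1 at 33.9 against 37.4 (0.908) and Brca2 at 17.1 against 18.5 (0.923). Hsf2bp was level, with 34.6 against 34.5 (1.002), and Spata22 was higher, with 21.01 against 18.66 (1.13). Ratios under 1 were found in 7 of the 9 genes, against 52.6% of all genes and 74.3% of those with a mean of at least 10, the range in which the 9 genes lie. The median ratio of the 9 genes was 0.840, against 0.875 for genes with such a mean. Scaled without mitochondrial genes, 6 of the 9 were under 1, against 50.5% of genes with such a mean, with a median of 0.924 against 0.998. Brca2 then crossed to 1.02. None of the 9 was 2-fold lower, where 3.23% of all genes were.

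Of the genes with a CCAAT shown above, Psmc3ip had the lowest ratio of the 9 (0.701), Rpa1 was at 0.840 and Spata22 had the highest (1.13). Dmc1, without a CCAAT in its window, was at 0.725. Against diff. SpG, Dmc1 (45.8 to 21.9, ratio 0.479) and Psmc3ip (42.6 to 20.9, ratio 0.492) were at least 2-fold lower, where 13.9% of all genes were, and against pL they had ratios of 0.481 and 0.489, where 9.28% of all genes were. Scaled without mitochondrial genes, none of these 4 ratios was 2-fold lower (0.577 to 0.624), where 8.00% of all genes were against diff. SpG and 3.03% against pL.

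**Figure D4:**
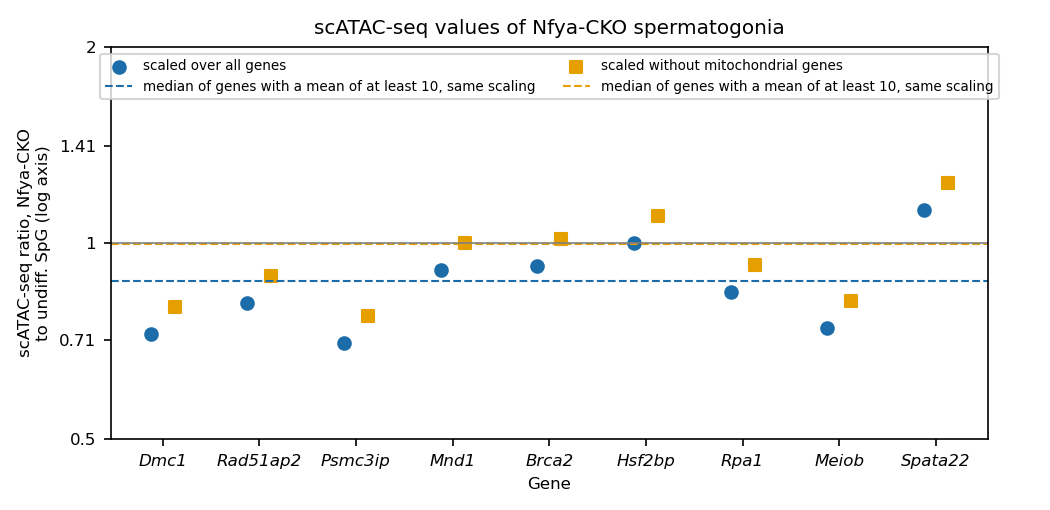
Ratio of the scATAC-seq value in SpG Nfya-CKO to that in undiff. SpG for each gene (log axis) with both scalings, each point 1 ratio of pooled values, and dashed lines at the median ratio of genes with a mean of at least 10. Psmc3ip, Dmc1 and Meiob lie lowest with both scalings, and Spata22 lies highest.

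Across the control germ cells, the order of the populations by accessibility depended on the scaling. Dmc1 was at 30.3 in undiff. SpG, 45.8 in diff. SpG, 45.7 in pL, 39.3 in eL/L/Z, 22.4 in L/Z/eP, 22.1 in mP/lP, 29.8 in D, 41.3 in RS and 30.6 in ES. Meiob was at 28.9, 30.5 and 29.6 in undiff. SpG, diff. SpG and pL, then at 37.2 in eL/L/Z, 30.9 in L/Z/eP, 39.6 in mP/lP, 45.6 in D, 44.4 in RS and 44.2 in ES. Scaled without mitochondrial genes, Meiob was at 43.1 in pL, 68.1 in eL/L/Z, 85.4 in L/Z/eP and 99.9 at mP/lP, and Dmc1 at 66.4, 72.0, 61.8 and 55.7. The gene with the highest step from pL to eL/L/Z in RNA thus also had the highest step in accessibility (ratio 1.25, or 1.57 without mitochondrial genes, where the median of the 9 genes was 0.864 and 1.08). The lowest value of the 9 genes among germ cells was that of Spata22 in ES, at 8.68, which rests on 124 cells.

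Highest in spermatogonia or pL were 5 of the 9 genes by accessibility (Dmc1, Psmc3ip, Brca2, Hsf2bp, Rpa1), but 2 of 9 (Brca2, Hsf2bp) when scaled without mitochondrial genes. Among all genes with a mean of at least 10 these shares were 71.1% and 43.3%. Over the 13 populations, the Pearson r between RNA and accessibility of a gene was 0.82 for Rpa1, 0.67 for Meiob, 0.66 for Dmc1 and -0.37 for Mnd1, with a median of 0.52 over the 9 genes and 0.32 over 15238 genes. Scaled without mitochondrial genes, Meiob was at 0.91, Psmc3ip at 0.85 and Mnd1 at -0.46. Over the 9 control germ cell populations alone, with all genes in the scaling, the median was 0.10, against 0.30 over all genes. There Rad51ap2 (-0.17), Psmc3ip (-0.42) and Hsf2bp (-0.69) turned negative, Mnd1 was at -0.89 and Dmc1 at 0.23. These are descriptions over populations that share libraries.

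Among themselves the genes differed in how alike their RNA courses were over the 13 populations. The pairs most alike were Rad51ap2 and Spata22 (Pearson r 0.95), Dmc1 and Brca2 (0.92), and Psmc3ip and Hsf2bp (0.92). Meiob came next with Hsf2bp (0.91), Psmc3ip (0.91) and Rad51ap2 (0.90), so the pairs overlapped. Meiob and Spata22, partners in 1 complex, were at 0.82, Brca2 and Hsf2bp at 0.32, and Rpa1 and Meiob lowest at 0.06. The median over the 36 pairs was 0.63, and it was 0.41 over the 9 control germ cell populations alone.

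Of 10847 other genes whose highest population reaches 0.5, those most like Dmc1 were Mki67, a gene of proliferating cells (r 0.98), and Gm960 (0.97). Mki67 was at 5.52 in eL/L/Z and 5.99 in L/Z/eP and fell to 1.39 in mP/lP. Most like Meiob were Tesmin (0.97), a gene of male meiotic cells, and Rnls (0.96), and for Psmc3ip they were Parpbp and Hyls1 (0.98 each). Spata22 was most like Odf2l and Rbm25 (0.97 each), Rad51ap2 like Rims2 (0.97) and Gm49340 (0.94), and Hsf2bp like Acot7 (0.97) and Cdkl2 (0.96). Brca2 went with Depdc5 and Srrm2 (0.96 each), Rpa1 with Sdad1 (0.97) and Utp18 (0.96), and Mnd1 with Gm26624 (0.93) and Wdr12 (0.91). These names depend on the populations used, since over the 9 control germ cell populations 1 of the 18 stayed among the leading pair of its gene.

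Of 22 other pathway genes for recombinase mediators and partners, 3 (13.6%) were highest in eL/L/Z or L/Z/eP, against 9.64% of all genes, and 9 (40.9%) in spermatogonia or pL, against 42.7% of all genes. The list was thus close to all genes in both shares. The other list held 9 genes for the remaining RPA subunits and for end resection, the cutting back of break ends. None of them was highest in eL/L/Z or L/Z/eP and 8 were highest in pL, as Rpa1 was. Over all genes tested 17.8% were highest in pL.

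**Figure D5:**
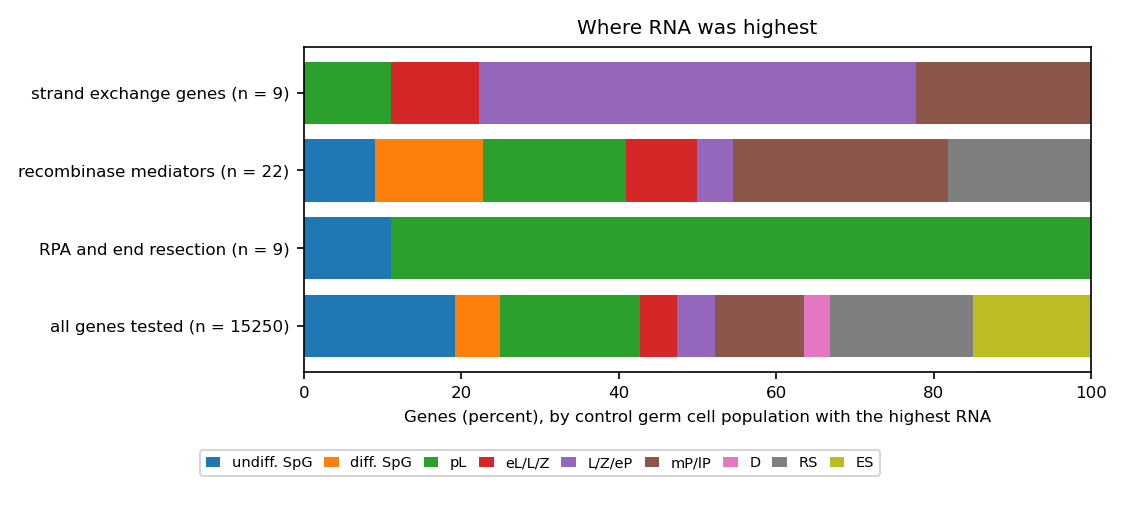
Share of genes (percent, horizontal axis) by the control germ cell population in which their RNA was highest, for the 9 strand exchange genes, 2 lists of other pathway genes and all 15250 genes tested. Of the strand exchange genes 6 of 9 fall in eL/L/Z or L/Z/eP, where 9.64% of all genes fall, and 8 of 9 RPA and end resection genes fall in pL.

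From pL to eL/L/Z, 1 of the 22 mediator genes rose at least 2-fold, against 4.41% of all genes, which was Mcmdc2, a gene needed for meiotic recombination (0.104 to 0.330, log2 ratio 1.07), and 6 of the 22 were higher by any amount, against 57.5% of all genes. The median of the 22 was -0.11, against 0.07 over all genes. From L/Z/eP to mP/lP, 1 of the 22 fell as far, against 3.54% of all genes, which was Rad51b, a recombinase paralog gene (2.39 to 0.560, -1.92), and it was higher again in D (1.61, log2 ratio 1.38), as Dmc1 and Brca2 were within 2-fold. None of the 9 RPA and end resection genes passed in either step. In SpG Nfya-CKO against undiff. SpG, 1 of the 22 was at least 2-fold higher, against 4.09% of all genes (BC055324, the gene of the FIGNL1 partner FIRRM, 0.525 to 1.55, log2 ratio 1.40), none was lower, and none of the 9 RPA and end resection genes passed. Against diff. SpG, 1 of the 22 was at least 2-fold lower, where 10.5% of all genes were, namely Rad54l, a recombination cofactor (0.878 to 0.307, -1.26). None was at least 2-fold higher, where 1046 of 15250 genes were. Against pL, Rad54l was again the 1 of the 22 that was lower (0.723 to 0.307, -1.01), where 4.73% of all genes were, and BC055324 the 1 that was higher (0.701 to 1.55, 1.04), where 9.05% of all genes were. Of the 9 RPA and end resection genes, Rpa2 was lower than in pL (1.48 to 0.656, -1.07) and none passed against diff. SpG.

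Some of the genes overlap a neighbour in RefSeq, and whether reads were counted by strand is not stated in the sources used here. Psmc3ip (chr11:101092141-101095435) overlaps Mlx on the other strand by 67 bases, Rpa1 (chr11:75300259-75348454) overlaps Smyd4 by 22 bases and Spata22 (chr11:73326560-73346592) overlaps Aspa by 317 bases. Brca2 (chr5:150522297-150570147) holds the noncoding gene Gm42529 over 2587 of its bases and the smaller Gm25284 and Gm23641. Meiob (chr17:24804301-24839788) overlaps Hagh by 8 bases on its own strand. Dmc1 (chr15:79561497-79605159), Rad51ap2 (chr12:11456023-11463153), Mnd1 (chr3:84087933-84155798) and Hsf2bp (chr17:31944769-32034895) overlap none. Reads in the overlaps cannot be assigned to 1 gene from these files.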

How the data were processed

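Nuclei of whole testes were measured in 10 samples, 1 scRNA-seq and 1 scATAC-seq library for each of 5 conditions. The authors aligned scRNA-seq reads with STAR 2.7.10b and scATAC-seq fragments with BWA 0.7.12 to mm10, collapsed copies with the same UMI, shifted fragment ends for the transposase, removed cells with Seurat 5.2.1 (those with under 500 genes, or with at least 5% mitochondrial UMIs) and ArchR 1.0.3 (under 1000 fragments or a TSS score under 4), and removed doublets. They deposited 2 matrices whose entry, a score per gene and population, is the natural log of 1 + a pooled mean. The authors also deposited the count of UMIs or fragments per cell and TSS enrichment as a ratio per cell. 21 other columns were not used, and 49 cells with no library name stayed in the authors' means.

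With Python 3.11.15, numpy 2.4.6 and pandas 2.3.3, values were turned back from the log. The scATAC-seq values were then scaled to 1000000 per population. RNA values were not rescaled, and the authors' methods give a factor of 10000 per cell. Log2 ratios used a pseudocount of 0.1 for RNA and 1 for scATAC-seq steps, and ratios of SpG Nfya-CKO used none. Genes were called at 2-fold by size alone. The RNA log2 ratio between undiff. SpG and SpG Nfya-CKO was tried on simulated counts, and the other calculations were not. A number of UMIs behind a value was estimated for cells of median depth. 1 gene of the pathway lists is not reported here. The members and lists were chosen with earlier results of these data known. Named were all members, at most 3 other pathway genes per direction past 2-fold, and the 2 genes most like each member. Alternatives covered pseudocounts, filters, scaling and the control population.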

Additional observations from a re-analysis of the deposited data

How the results depend on the processing

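No paired analysis was possible because each condition had 1 library and no result comes from a test. Of 126 alternative values of the counts and medians over the 9 genes, 107 stayed within 1.5-fold (r within 0.1). Of 477 alternative values of single genes 449 did. These include 81 without the filter on low values and 63 at a mean of at least 0.2, and a filter cannot change the log2 ratio of a single gene. Among the 28 that moved were all 9 r values of RNA and scATAC-seq over the control germ cell populations. With scaling without mitochondrial genes, 5 of these r values moved. The others moved with the pseudocount or the control population.

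The pseudocount moved several counts. The shares of all genes given above are for a pseudocount of 0.1, so the counts at 0.02 and 0.5 have none beside them. At 0.02, members 2-fold higher from undiff. to diff. SpG were 2, 2-fold lower from D to RS 3, and 2-fold lower in SpG Nfya-CKO than in undiff. SpG 3. At 0.5 they were 0 from undiff. to diff. SpG, 0 lower from diff. SpG to pL, 1 higher from pL to eL/L/Z and 0 lower from D to RS. Centring on the median of all genes left 0 from undiff. to diff. SpG and 0 from D to RS. Members 2-fold lower in SpG Nfya-CKO were 3 against diff. SpG and 1 against pL by RNA, and 2 against either by scATAC-seq. Scaling without mitochondrial genes left 2 members highest in spermatogonia or pL by scATAC-seq and gave a median r of 0.68 between RNA and scATAC-seq. Over the 9 control germ cell populations that median was 0.10 and the median r of member pairs 0.41. Of 18 genes named as most alike, 1 stayed there and 10 stayed at a pseudocount of 0.5. The filters on low values moved no count beyond 1.5-fold, but without the filter the same 9 members were counted. At a mean of at least 0.2, 2 members were left out and 5 of the other 7 were lower in SpG Nfya-CKO than in undiff. SpG. The share of all genes lower at that filter is not given here, so this count says nothing about the members as a group.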
